A study of Mus musculus with 6 samples.

Results

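The 42 genes described here encode the chaperones of the cytosol and of the mitochondrial matrix, with the co-chaperones that serve them and the transcription factors HSF1 and HSF2 that switch on the heat-inducible ones. They were taken by symbol from the deposited tables, which held all 42 among 17006 genes. The measurement was bulk RNA sequencing of neural stem cells that had been isolated from the subventricular zone, a germinal layer along the brain's lateral ventricles, and kept in proliferation medium. The aged group (3 libraries) came from C57BL/6 mice of 15 to 18 months and the young group (3 libraries) from C57BL/6 mice of 2 months. In both groups, tissue of 5 mice was pooled for dissociation, so the values describe cultured cells and not the tissue, and the labels do not say whether the 3 libraries of an age came from separate pools. The p-values therefore measure the spread between these libraries, which may be technical.

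Chaperones of the HSP70 family bind short hydrophobic stretches of unfolded proteins in a cycle driven by ATP. J-domain proteins (HSP40s) deliver the clients and start ATP hydrolysis, whereas nucleotide exchange factors, among them the HSP110 and BAG proteins, release them. HSP90 takes partly folded kinases and hormone receptors from HSP70 through adaptor proteins, and the ring-shaped CCT complex folds actin and tubulin. In mitochondria, mortalin (HSPA9) helps to pull proteins through the inner membrane and HSP60 with its lid HSP10 encloses them for folding. Under heat or other proteotoxic stress, HSF1 binds heat shock elements in promoters and raises the inducible members, while constitutive members are made in unstressed cells.

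None of the chaperone genes that could be tested passed the threshold for a difference between cells of aged and young mice. Of the 42 genes, 40 had a mean of at least 1 FPKM (fragments per kilobase of transcript, scaled to sequencing depth) and were tested with limma on log2(FPKM + 1). At an adjusted p under 0.05, 0 of the 40 were called, against 0.722% of all 11912 genes tested (86 genes; 0.327% higher and 0.395% lower in aged libraries). At an unadjusted p under 0.05, 4 of the 40 (10%) were found, against 11.9% of all genes tested. Of these, 3 were higher in aged libraries (against 6.3% of all genes) and 1 was lower (against 5.55%). In 4 of the 40 (10%) the aged and young libraries did not overlap, against 17.6% of all genes tested. The aged libraries lay above in Dnajb1 and Bag1 (2 of 40, against 8.98% of all genes) and below in Hsp90aa1 and Hspa2 (2 of 40, against 8.58%). With both directions counted, the members' shares were below those of all genes, but they rest on only 0, 4 and 4 genes. By direction at an unadjusted p under 0.05, the 3 of 40 higher were a larger share than 6.3%. The 1 of 40 lower was a smaller share than 5.55%. Whether the members' shares differ from those of all genes was not tested. The median log2 change of the 40 was 0.0069, against 0.0027 for all genes tested, and the median absolute log2 change was 0.039, against 0.070. The sign of the members' median depended on the processing: it was -0.0067 after rescaling to TPM and -0.0063 after quantile normalization, and -0.0077 without aged library 3 and -0.0047 without young library 3. The summed level of all 42 genes was 5524, 5514.6 and 5651.7 FPKM in the aged libraries, against 5567.6, 5572.7 and 5526.7 FPKM in the young libraries. These ranges overlapped, and the 42 genes made up 1.19% to 1.22% of all FPKM in every library. A p that misses the threshold does not show equality, so the intervals of the differences are given with the genes.

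Depth, estimated from the steps between low FPKM values, was about 5215000, 5245000 and 5290000 counted reads in the aged libraries, against 5405000, 5480000 and 5415000 in the young libraries. All aged estimates were thus slightly lower than all young ones. The normalization between libraries is not given, so the estimates do not settle whether the depth itself differed. The part of this in the results was not tested. Of 10 markers of neural stem cells, Fabp7 (2741 FPKM), Nes (266.7 FPKM) and Sox2 (176.2 FPKM, means over the 6 libraries) were abundant. Gfap averaged 4.09 FPKM. In this list 0 of 10 were called. Aged libraries lay above young ones in 5, among them Sox2, and below in 2, Nes and Vim (against 8.98% and 8.58% of all genes tested). Vim was nearest the threshold (1531.8 ± 13.2 FPKM in aged and 1659.5 ± 24.4 FPKM in young libraries, SD, n = 3 each, limma adjusted p = 0.0608). Among markers of other cells, the summed level of 4 microglial genes was 0.7 to 0.9 FPKM in aged and 0.5 to 1.0 FPKM in young libraries, with the leukocyte marker Ptprc at 0.04 FPKM or less. The 5 endothelial genes summed to 1.0 to 1.2 FPKM in aged and 1.3 to 2.4 FPKM in young libraries, with Pecam1 at 0.17 FPKM or less. The 6 genes of pericytes and fibroblasts summed to 2.7 to 3.7 FPKM in aged and 0.4 to 0.6 FPKM in young libraries. The larger part was Col1a1, which was called higher (2.46 ± 0.390 FPKM in aged and 0.423 ± 0.115 FPKM in young libraries, SD, n = 3 each; limma adjusted p = 0.0107). The collagen genes Col1a2 (0.633 FPKM in aged and 0.013 FPKM in young libraries) and Col3a1 (0.13 and 0.02 FPKM) were also higher on average. In contrast, Pdgfrb, Rgs5 and Dcn averaged only 0.005, 0.033 and 0.017 FPKM over the 6 libraries, and Rgs5 and Dcn were 0 in all aged libraries. The 5 genes of ependyma and choroid plexus summed to 8.6 to 12.5 FPKM in aged and 10.9 to 12.8 FPKM in young libraries. Most of it was Foxj1 (10.98 FPKM over all libraries), and each of the others averaged 0.085 FPKM or less. The 6 genes of neuroblasts and neurons summed to 153.8 to 163.1 FPKM in aged and 159.8 to 163.5 FPKM in young libraries, most of it Map2 (124.6 ± 4.04 FPKM in aged and 129.8 ± 1.16 FPKM in young libraries), with aged below young in all. In the same list aged libraries lay above young ones for Tubb3 (12.1 ± 0.764 and 9.37 ± 0.904 FPKM, SD, n = 3 each; limma adjusted p = 0.140) and for the neuroblast marker Dcx (0.653 ± 0.175 and 0.350 ± 0.053 FPKM), and 0 of its 4 tested genes were called. The 6 genes of mature oligodendrocytes summed to 7.1 to 7.5 FPKM in aged and 8.5 to 9.6 FPKM in young libraries. The part of these cells in the chaperone values was not tested, and in bulk RNA fewer cells of a type and less RNA per cell cannot be told apart. Immediate early genes, which respond to handling and dissociation, summed to 478.0 to 483.6 FPKM in aged and 477.9 to 489.6 FPKM in young libraries. Egr1 (210.9 FPKM) and Jun (100.3 FPKM, means over the 6 libraries) made up most of the sum. Of 13 tested genes 0 were called, 5 had positive and 8 negative log2 changes, and the median was -0.053. Aged libraries lay above young ones in 1, Fosl1, and below in 2, Jun and Btg2 (against 8.98% and 8.58% of all genes tested). The part of handling in the chaperone values was not tested.

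Of the heat-inducible group, the least abundant members were the classical stress-induced HSP70 genes Hspa1a and Hspa1b and the small heat shock protein genes Hspb1 and Hspb8. Hspa1a (gene 193740, RefSeq GRCm38.p6 chromosome 17, 34969359 to 34972156) and Hspa1b (gene 15511, chromosome 17, 34956429 to 34959238) are neighbouring copies that encode nearly the same protein. Their promoters are shown because the pair held the only members whose log2 change exceeded 0.2 in size. Each sequence is the 250 bases upstream of the RefSeq start site in GRCm38.p6, on the minus strand of chromosome 17, chr17:34972157-34972406 for Hspa1a and chr17:34959239-34959488 for Hspa1b. Capitals mark an exact match to 2 inverted units of the heat shock element (GAANNTTC or TTCNNGAA). This short form occurred in 17% of all genes with a promoter, and imperfect units were not searched for.
Hspa1a: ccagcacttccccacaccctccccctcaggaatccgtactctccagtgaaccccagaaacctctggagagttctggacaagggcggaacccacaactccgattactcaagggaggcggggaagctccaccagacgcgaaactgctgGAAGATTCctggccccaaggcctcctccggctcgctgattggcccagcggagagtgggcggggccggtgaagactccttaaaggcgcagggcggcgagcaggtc
Hspa1b: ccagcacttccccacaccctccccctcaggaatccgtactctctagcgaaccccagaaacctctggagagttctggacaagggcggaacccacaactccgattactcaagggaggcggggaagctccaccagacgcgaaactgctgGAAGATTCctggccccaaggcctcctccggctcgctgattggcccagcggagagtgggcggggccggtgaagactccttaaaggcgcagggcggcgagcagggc
The copies were identical at 247 of these 250 bases (98.8%), and both held 1 such match, 104 to 97 bases before the start. The likeness extended into the transcripts. Of all windows of 50 bases in the Hspa1a transcript of GENCODE M21, 58.8% also occurred in the Hspa1b transcript, and 47.1% of windows of 100 bases did. The read length and the assignment of reads that match both copies are not given in the sources used here, so the split between the 2 genes is uncertain.

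Hspa1a had 0.35, 0.23 and 0.56 FPKM in the aged libraries, against 0.90, 1.00 and 1.29 FPKM in the young libraries. All 3 aged values lay below all 3 young ones. They rest on about 17.8 estimated reads in the aged and 51.4 in the young group, summed over the 3 libraries. With a mean of 0.722 FPKM over all libraries the gene was under the filter. In a fit with no filter its log2 change was -0.583, with an unadjusted p of 0.00182 and a limma adjusted p of 0.1455, and an exact two-sided permutation test gave p = 0.1, the smallest that 3 against 3 libraries allow. Hspa1b had 2.39, 2.47 and 1.38 FPKM in the aged libraries, against 1.43, 1.31 and 0.75 FPKM in the young libraries. The aged library with the lowest value fell among the young ones, so the groups overlapped. Its log2 change was 0.50 ± 0.20 (SE, 95% interval 0.05 to 0.95), with a limma adjusted p of 0.360.

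Summed, the pair had 2.74, 2.70 and 1.94 FPKM in the aged libraries, against 2.33, 2.31 and 2.04 FPKM in the young libraries. Here the third aged library was the lowest of all and the other aged libraries were the highest. The log2 change of the sum, a value added after the data had been seen, was 0.093 ± 0.13 (SE, 95% interval -0.21 to 0.40; limma adjusted p = 0.854). Hspa1a made up 12.8%, 8.52% and 28.9% of the pair in the aged libraries, against 38.6%, 43.3% and 63.2% in the young libraries. The shares did not overlap (exact two-sided permutation p = 0.1, the smallest possible). They restate the values of the 2 genes already seen and are no further test. The opposite differences of the copies thus left a sum that did not pass the test, and whether the share reflects the genes or the placing of shared reads cannot be told apart in these files.

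**Figure D1:**
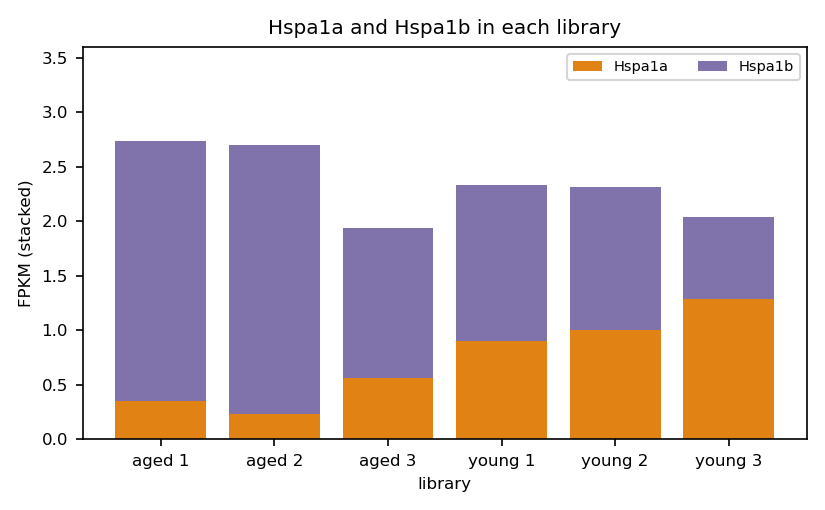
FPKM of Hspa1a and Hspa1b stacked in each of the 6 libraries (aged 1 to 3, then young 1 to 3). The total lies between 1.94 and 2.74 FPKM, while the Hspa1a part is 0.23 to 0.56 FPKM in aged and 0.90 to 1.29 FPKM in young libraries.

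The small heat shock proteins hold unfolding proteins without using ATP. Hspb1, which encodes HSP25, the mouse counterpart of HSP27, had 0.63, 1.05 and 0.62 FPKM in the aged libraries, against 1.02, 0 (as listed) and 1.23 FPKM in the young libraries. The young libraries spanned the aged ones, and the mean of 0.758 FPKM was under the filter. Its promoter is shown because it was the one in the group with 2 separate 2-unit matches upstream of the start. They lie at 117 to 110 and at 97 to 90 bases before the start (250 upstream bases, plus strand, chr5:135887669-135887918, matches in capitals).
Hspb1: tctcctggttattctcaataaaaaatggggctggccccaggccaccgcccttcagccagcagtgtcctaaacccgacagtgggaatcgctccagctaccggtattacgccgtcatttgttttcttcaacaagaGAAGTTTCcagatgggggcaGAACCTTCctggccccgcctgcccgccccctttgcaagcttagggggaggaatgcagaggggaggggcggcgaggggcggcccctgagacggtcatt
Hspb8, whose protein works with BAG3 to send clients to autophagy, had 1.96, 1.56 and 1.54 FPKM in the aged libraries, against 1.31, 1.92 and 1.52 FPKM in the young libraries. The groups overlapped, and the limma adjusted p was 0.922. Hspb1 rests on about 10.9 and Hspb8 on about 48.2 estimated reads summed over the aged libraries, against 11.0 and 46.9 over the young libraries. At this depth small differences were not detectable, and the 95% interval of the log2 change of Hspb8 ran from -0.27 to 0.39.

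The remaining inducible members were expressed at 9 to 262 FPKM. Dnajb1, the main stress-induced HSP40 (gene 81489, chromosome 8, 83608175 to 83612653), had 29.9, 29.6 and 31.4 FPKM in the aged libraries, against 29.4, 27.0 and 26.1 FPKM in the young libraries. All aged values lay above the young ones, with the lowest aged value next to the highest young one. The log2 change was 0.13 ± 0.057 (SE, 95% interval 0.006 to 0.26), and the limma adjusted p of 0.398 did not pass. Hsp90aa1, the inducible cytosolic HSP90, was singled out after its values were seen (gene 15519, chromosome 12, 110691036 to 110696395). It had 261.0, 256.1 and 258.1 FPKM in the aged libraries, against 265.6, 266.9 and 264.6 FPKM in the young libraries. These groups did not overlap either, with aged below young, but the difference was small (log2 change -0.040 ± 0.026 (SE), 95% interval -0.098 to 0.019, limma adjusted p = 0.623). Of the 2 inducible HSP110 genes, which encode exchange factors of HSP70, Hsph1 averaged 39.6 ± 2.21 FPKM in aged and 42.03 ± 1.36 FPKM in young libraries (SD, n = 3 each). Hspa4l averaged 10.8 FPKM in aged and 11.4 FPKM in young libraries. Dnajb4, another HSP40, averaged 9.59 FPKM in aged and 9.17 FPKM in young libraries. Bag3, the exchange factor of the HSPB8 complex, averaged 9.34 ± 0.964 FPKM in aged and 10.02 ± 1.46 FPKM in young libraries, with wide overlap (SD, n = 3 each). For these 4 genes limma gave adjusted p-values between 0.608 and 0.836.

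Over the group of 10, 8 were tested and 0 were called, with a median log2 change of 0.01 and 4 of the 8 in each direction. The inducible genes summed to 366.6, 358.9 and 363.3 FPKM in aged libraries, against 373.4, 369.2 and 368.4 FPKM in young libraries. The aged sums were all lower, at 0.98 times the young level on average, and Hsp90aa1 made up most of the sum. The heat shock factors themselves were expressed at moderate levels. Hsf1, the factor of the acute response, had 21.6, 25.5 and 26.2 FPKM in aged libraries, against 23.5, 22.7 and 22.2 FPKM in young ones. Of the aged values, 2 were the highest and 1 was the lowest of the 6. Its log2 change was 0.092 ± 0.074 (SE, limma adjusted p = 0.705). Hsf2, which forms mixed trimers with HSF1, averaged 13.7 ± 1.21 FPKM in aged and 13.1 ± 1.55 FPKM in young libraries (SD, n = 3 each; limma adjusted p = 0.850).

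**Figure D2:**
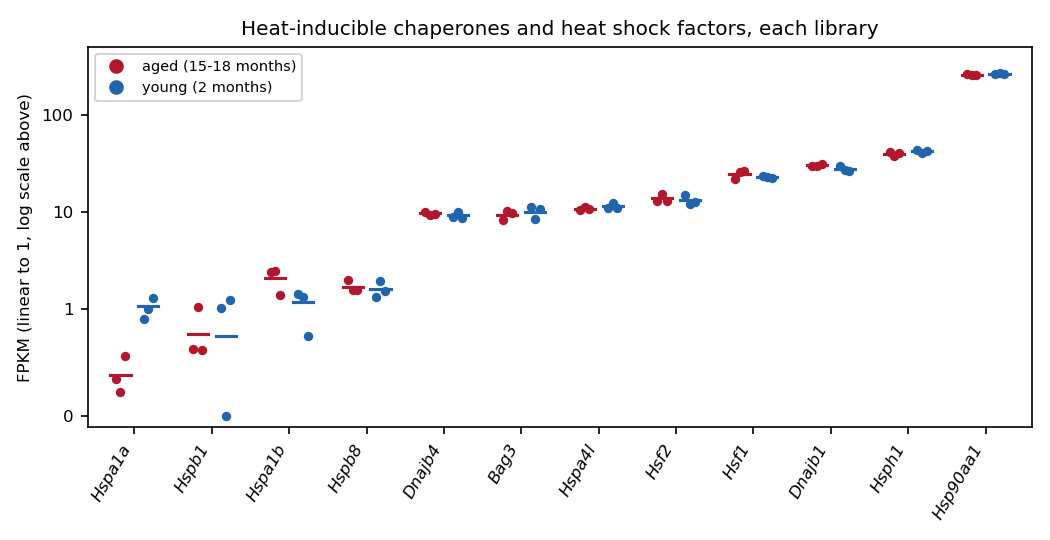
FPKM of the 10 heat-inducible genes and the 2 heat shock factors (axis linear to 1, log scale above), each point 1 library, aged left and young right, with lines at the group means. Hspa1a lies lower and Dnajb1 slightly higher in aged libraries, Hsp90aa1 slightly lower (258.4 against 265.7 FPKM on average), and the other genes overlap.

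Heat shock elements were looked for in the RefSeq promoters (250 bases before to 50 after a start, GRCm38.p6), which held 34 of the 42 genes. The element was written as 2 inverted units (GAANNTTC or TTCNNGAA, which read alike on both strands) or as 3 units (GAANNTTCNNGAA or TTCNNGAANNTTC, each the other's reverse complement, so that every 3-unit match also holds 2-unit matches). The 2-unit form occurred in 7 of 9 heat-inducible genes (77.8%), namely Bag3, Dnajb4, Hspa1a, Hspa1b, Hspb1, Hspb8 and Hsph1. It occurred in 3 of 13 constitutive genes (23.1%), 3 of 7 CCT genes (42.9%) and 2 of 4 mitochondrial genes (50%), against 17% of all 27025 genes with a promoter in the table. The 3-unit form was in Hsph1, Dnajb6, Hspd1 and Hspe1, 4 of 34 genes (11.8%), against 0.662% of all genes. The matches of the neighbouring genes Hspd1 and Hspe1 are the same bases, so they are 1 run counted for both. Of the 4 members with an unadjusted p under 0.05, Hspa1b held an element in its window, while no match was found for Dnajb1, Hspa2 and Bag1. A gene without a promoter in the table could not give a match. A match is a description of sequence and not a site shown to be bound.

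Among constitutive chaperones, the general HSP70 Hspa8 (HSC70) and the constitutive HSP90 Hsp90ab1 were far above the others on the per-length scale of FPKM. Hspa8 (gene 15481, chromosome 9, 40801276 to 40805202) ranked 30 among all 17006 genes by mean level. It had 1130.1, 1148.4 and 1180.5 FPKM in aged libraries, against 1155.5, 1116.8 and 1139.1 FPKM in young libraries. The groups overlapped, and the 95% interval of the log2 change, -0.039 to 0.078, reached up to a level 5.58% higher in aged libraries on the scale of FPKM + 1 (log2 change 0.020, limma adjusted p = 0.836). Hsp90ab1 (gene 15516, chromosome 17, 45567778 to 45573261), at rank 47, had 968.4, 948.2 and 966.0 FPKM in aged libraries, against 967.6, 977.5 and 973.5 FPKM in young libraries. These also overlapped, with an interval of -0.067 to 0.032 (limma adjusted p = 0.824). The ratio of Hsp90ab1 to its inducible paralog Hsp90aa1 was 3.71, 3.70 and 3.74 in aged libraries, against 3.64, 3.66 and 3.68 in young libraries. The aged ratios were all higher (exact two-sided permutation p = 0.1, the smallest possible). Because the groups of Hsp90aa1 had already been seen not to overlap, this ratio restates those values and is no further test. The unplanned ratio of Stip1 to St13 separated as well (exact two-sided permutation p = 0.1), while those of Hspa8 to Hsp90ab1 and of Hspd1 to Hspe1 overlapped. Of the windows of 50 bases, 0% of those of Hspa1a occurred in Hspa8 and 0% of those of Hsp90aa1 in Hsp90ab1.

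The other constitutive HSP70 genes were less abundant. Hspa2, an HSP70 best known from spermatogenesis (gene 15512, chromosome 12, 76403812 to 76406938), had 7.01, 6.34 and 6.48 FPKM in aged libraries, against 7.36, 7.55 and 7.93 FPKM in young libraries. All aged values lay below all young ones, at a mean of 0.868 times the young level, on about 263 and 313 estimated reads. With a log2 change of -0.18 ± 0.075 (SE, 95% interval -0.35 to -0.0085) and a limma adjusted p of 0.396 it did not pass. Hspa14, which works with J proteins at the ribosome, averaged 46.4 FPKM in aged and 45.7 FPKM in young libraries. Hspa4, the most abundant HSP110 here, had 83.3, 90.4 and 85.4 FPKM in aged libraries, against 89.0, 87.7 and 90.5 FPKM in young libraries, with overlap. The 3 HSP110 genes Hsph1, Hspa4 and Hspa4l had log2 changes of -0.084, -0.044 and -0.071, with 0 called (limma adjusted p from 0.608 to 0.773). Their sum averaged 136.8 ± 1.87 FPKM in aged and 142.5 ± 1.85 FPKM in young libraries (SD, n = 3 each). Among the sums by role this one had the lowest ratio of aged to young, 0.96, and the others ran from 0.9845 to 1.051. It pools the inducible Hsph1 and Hspa4l with the constitutive Hspa4, and the difference of the sum was not tested.

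J proteins and HSP90 partners varied little. Dnaja1, a general HSP40 of the cytosol, had 62.2, 63.1 and 62.5 FPKM in aged libraries, against 66.3, 62.6 and 63.2 FPKM in young libraries, with overlap. Its relative Dnaja2 averaged 60.2 FPKM in aged and 62.0 FPKM in young libraries. Dnajb6, which keeps polyglutamine proteins from clumping, averaged 53.4 ± 1.44 FPKM in aged and 51.5 ± 2.27 FPKM in young libraries (SD, n = 3 each). Stip1 (HOP), the adaptor that hands clients from HSP70 to HSP90, averaged 131.3 ± 7.04 FPKM in aged and 128.2 ± 2.06 FPKM in young libraries (SD, n = 3 each). St13 (HIP), which slows release from HSP70, had 143.1, 143.1 and 159.5 FPKM in aged libraries, against 148.3, 152.7 and 148.8 FPKM in young ones. The third aged library was the highest for both, and without it the log2 changes were -0.011 for Stip1 and -0.067 for St13. Ahsa1, the activator of the HSP90 ATPase, averaged 103.6 FPKM in aged and 98.4 FPKM in young libraries. Cdc37, the kinase adaptor, averaged 66.3 FPKM in aged and 67.1 FPKM in young libraries. Adjusted p-values by limma lay between 0.557 and 0.938 for these 7 genes.

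BAG proteins share a domain that docks on the ATPase of HSP70. Bag1 (gene 12017, chromosome 4, 40936398 to 40948294) had 64.90, 64.97 and 64.95 FPKM in aged libraries, against 61.25, 61.96 and 61.18 FPKM in young libraries. The aged values were all higher and nearly equal, with an SD of 0.036 FPKM, against 0.43 FPKM in young libraries (n = 3 each). The log2 change of 0.078 ± 0.034 (SE, 95% interval 0.00086 to 0.16) had a limma adjusted p of 0.419. Limma shrinks a spread this narrow towards that of genes of like level. Bag6, which guards hydrophobic proteins before membrane insertion, had 112.5, 115.4 and 114.8 FPKM in aged libraries, against 113.9, 112.0 and 114.0 FPKM in young libraries, with overlap. Bag5, with several BAG domains, averaged 26.9 ± 1.60 FPKM in aged and 27.2 ± 1.83 FPKM in young libraries (SD, n = 3 each). Bag2, an inhibitor of the ubiquitin ligase CHIP, averaged 6.45 FPKM in aged and 5.98 FPKM in young libraries. Bag4 averaged 5.44 FPKM in aged and 5.55 FPKM in young libraries. Over the 17 constitutive genes, 0 were called, 8 had positive and 9 negative log2 changes, and the median was -0.015.

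**Figure D3:**
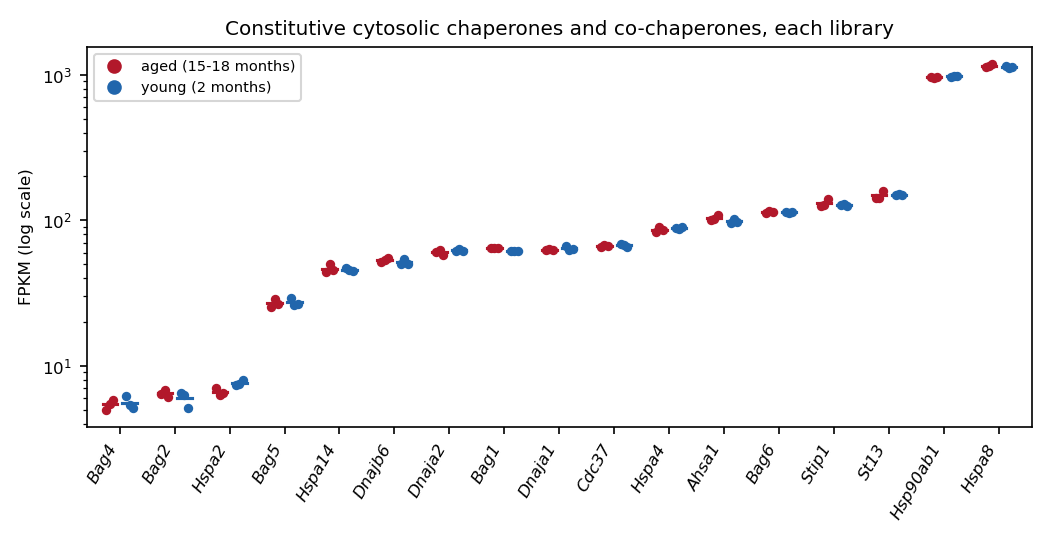
FPKM on a log scale of the 17 constitutive cytosolic genes, each point 1 library, aged left and young right, with lines at the group means. Levels span from about 5 FPKM (Bag4) to over 1100 FPKM (Hspa8), and only Hspa2 and Bag1 have groups that do not overlap.

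The CCT ring is built from 8 different subunits in equal number, encoded by Tcp1 and Cct2 to Cct8. All 8 genes were tested and 0 were called, with log2 changes between -0.028 and 0.061, a median of 0.013 (-0.0006 after rescaling to TPM) and limma adjusted p from 0.601 to 0.992. In 0 of the 8 did the groups separate. The widest bounds of the 95% intervals were -0.10 and 0.15 on the log2 scale. Cct2, the most abundant, had 212.9, 207.2 and 210.0 FPKM in aged libraries, against 207.9, 217.4 and 217.2 FPKM in young libraries, and 2 of the young values were the highest of the 6. Cct5 averaged 210.9 ± 9.44 FPKM in aged and 202.0 ± 2.89 FPKM in young libraries, the largest log2 change of the ring (0.061 ± 0.037, SE). Tcp1 averaged 174.9 ± 3.89 FPKM in aged and 173.3 ± 5.76 FPKM in young libraries (SD, n = 3 each). Summed over the ring, the aged libraries had 1374.4, 1363.6 and 1386.2 FPKM, against 1339.1, 1382.0 and 1350.6 FPKM in the young libraries, which overlapped.

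The transcripts of the ring were not equal in FPKM, although the assembled ring holds its subunits in equal number. Subunit proteins were not measured. By mean FPKM the order was Cct2 (212.1), Cct5 (206.5), Cct3 (198.1), Tcp1 (174.1), Cct6a (160.6), Cct8 (157.9), Cct7 (151.0) and Cct4 (105.8). The ranges of Cct2 and Cct5 overlapped over the 6 libraries, as did those of Cct5 and Cct3 and those of Cct6a, Cct8 and Cct7, whereas Cct4 lay under every other subunit in every library. Relative to the mean of the 8 in the same library, Cct4 stood at 0.602, 0.604 and 0.642 in aged libraries and at 0.604, 0.643 and 0.621 in young libraries. The coefficient of variation over the subunits was 21.9%, 19.99% and 20.1% in aged libraries, against 21.2%, 19.7% and 21.5% in young libraries, which overlapped.

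In the mitochondrial matrix, Hspd1 (HSP60, gene 15510, chromosome 1, 55077833 to 55088243) and Hspe1 (HSP10, gene 15528, chromosome 1, 55088148 to 55091317) are arranged head to head, and their annotated spans overlap by 96 bases. The 30 bases at chr1:55088053-55088082 (GRCm38.p6, plus strand, that of Hspe1) lie between the start sites RefSeq gives for Hspe1 and for one Hspd1 transcript. They also lie within the annotated span of Hspd1 and overlap an exon of it in GENCODE M21. They are shown because they hold an unbroken run of 4 heat shock units, in capitals, 89 to 72 bases before the Hspe1 start.
Hspe1 and Hspd1: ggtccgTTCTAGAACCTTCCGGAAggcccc
Hspd1 had 235.9, 228.9 and 241.4 FPKM in aged libraries, against 239.4, 245.7 and 240.1 FPKM in young libraries. Hspe1 had 212.4, 203.1 and 221.1 FPKM in aged libraries, against 223.4, 216.6 and 213.8 FPKM in young libraries. The groups overlapped for both genes, and the second aged library was the lowest for both. Their log2 changes were -0.038 ± 0.031 and -0.039 ± 0.038 (SE), with limma adjusted p of 0.700 and 0.763. The ratio of Hspd1 to Hspe1 was 1.11 ± 0.018 in aged and 1.11 ± 0.033 in young libraries (SD, n = 3 each).

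Hspa9 (mortalin), the HSP70 of the matrix, averaged 158.0 ± 6.48 FPKM in aged and 160.1 ± 5.99 FPKM in young libraries (SD, n = 3 each). Its HSP40 partner Dnaja3 averaged 26.5 FPKM in aged and 26.2 FPKM in young libraries. Trap1, the mitochondrial HSP90, averaged 58.5 FPKM in aged and 59.2 FPKM in young libraries. Over the 5 mitochondrial genes 0 were called, the median log2 change was -0.019, and adjusted p ran from 0.700 to 0.933 by limma.

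**Figure D4:**
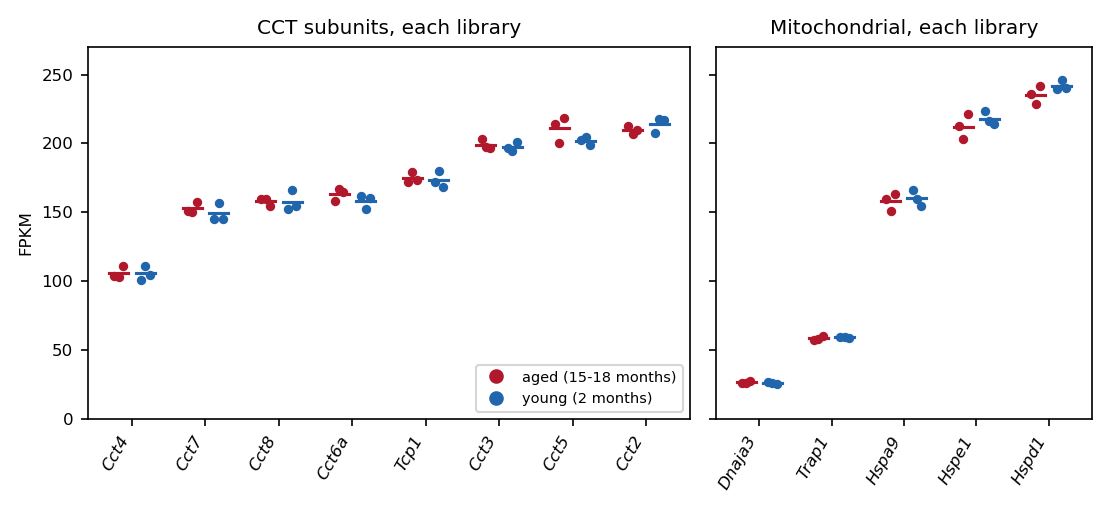
FPKM of the 8 CCT subunit genes and the 5 mitochondrial chaperone genes, each point 1 library, aged left and young right, with lines at the group means. Aged and young points overlap for all 13 genes, Cct4 lies under the other subunits, and Hspd1 and Hspe1 have similar levels.

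The precision behind these values differed with the level. For the 31 tested genes averaging 20 FPKM or more, the median coefficient of variation was 2.8% among aged and 2.25% among young libraries, and the 95% intervals together ran from a level 13.1% lower to one 20.1% higher in aged libraries, on the scale of FPKM + 1. For the 9 tested genes under 20 FPKM, the median coefficients were 7.83% and 11.9%, and the intervals ran from 21.5% lower to 93.6% higher. Exons of 9 members overlap those of another gene in the tables on the opposite strand (Cct6a, Cct7, Cct8, Dnaja1, Dnaja3, Hspd1, Hspe1, Tcp1 and Trap1), and the strand setting of the counting is not given in the sources used here. Dnaja3 also overlaps Vasn on its own strand. RefSeq names 16 pseudogenes of 7 members (Hspe1 has 6 and Hspd1 5), 0 of them listed in the tables. Only symbols made of a member's symbol and the ending -ps were counted, so pseudogenes under other names are left out. How reads matching pseudogenes were treated is not given.

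**Figure D5:**
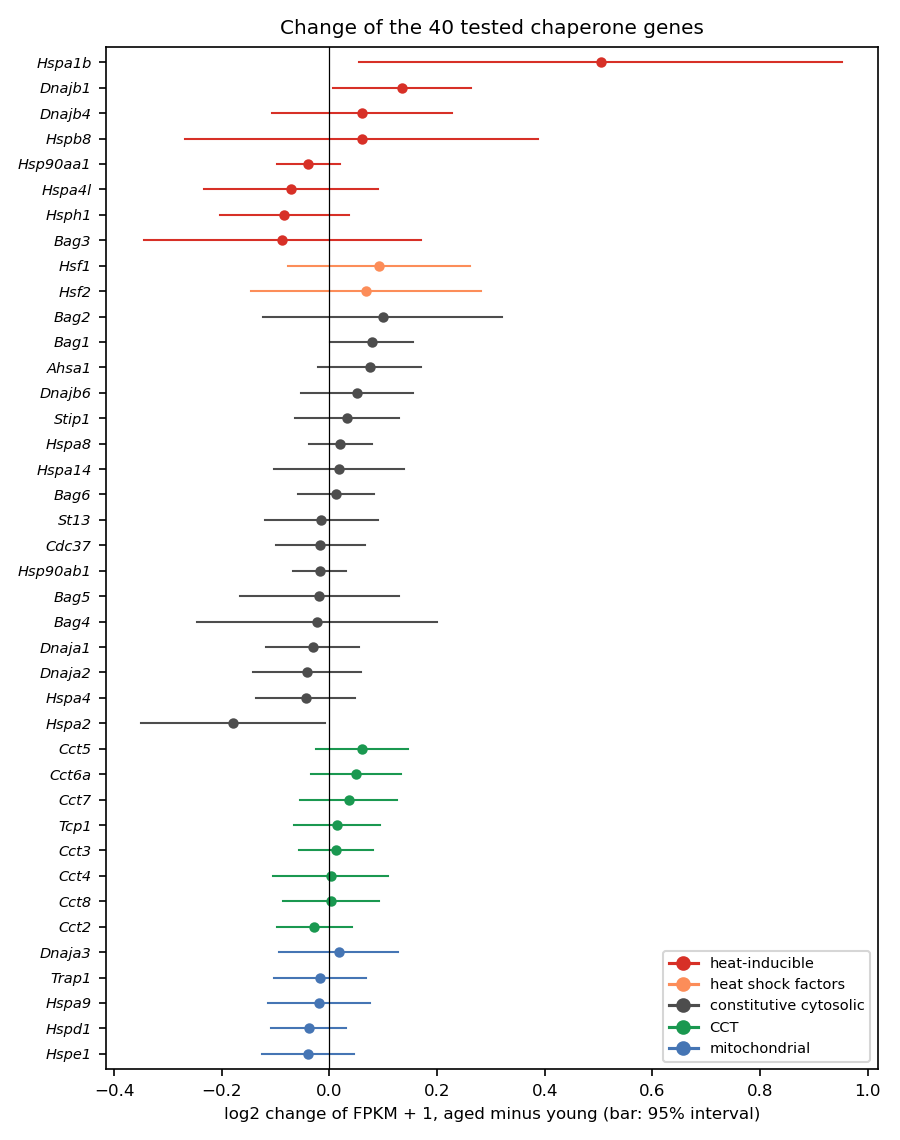
Log2 change of FPKM + 1 (aged minus young) of the 40 tested genes by class, with limma's 95% intervals as bars and 0 as the vertical line. Hspa1b has the largest change and the widest interval, and only Hspa1b, Dnajb1, Bag1 and Hspa2 have intervals that leave out 0, with no adjustment for the number of genes.

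Among other genes of protein folding none passed the test. Of 78 tested genes in 4 further lists, 0 were called by limma, 5 were higher and 2 lower in aged libraries at an unadjusted p under 0.05 (against 6.3% and 5.55% of all genes tested), and the median log2 change was 0.0022. In a list of further, mainly cytosolic chaperones and co-chaperones with 31 tested genes, those with the smallest p were Dnajc7, an HSP40 that also binds HSP90 (73.7 ± 3.74 FPKM in aged and 80.5 ± 1.06 FPKM in young libraries), Hspa13, an HSP70 that stands in this list but is known from the endoplasmic reticulum (12.8 FPKM in aged and 14.3 FPKM in young) and Dnajc9, a histone chaperone (82.6 FPKM in aged and 78.1 FPKM in young). By limma, their adjusted p-values lay between 0.293 and 0.381. Among 14 prefoldin subunits and tubulin and CCT helpers, Pfdn2 averaged 77.5 ± 1.46 FPKM in aged and 71.4 ± 4.52 FPKM in young libraries, Pfdn6 77.9 FPKM in aged and 71.8 FPKM in young, and Tbcc 20.1 FPKM in aged and 18.4 FPKM in young. Among 16 further mitochondrial chaperones and quality control proteases, the matrix protease Lonp1 averaged 54.7 ± 1.93 FPKM in aged and 49.2 ± 2.36 FPKM in young libraries (limma adjusted p = 0.268), the inner membrane protease Afg3l2 25.4 FPKM in aged and 23.4 FPKM in young, and Yme1l1 21.4 FPKM in aged and 23.3 FPKM in young. Of 17 chaperones of the endoplasmic reticulum, Dnajb9 averaged 12.4 ± 0.789 FPKM in aged and 10.46 ± 0.502 FPKM in young libraries (SD, n = 3 each; limma adjusted p = 0.255), Pdia3 171.6 FPKM in aged and 177.5 FPKM in young, and Dnajb11 54.6 FPKM in aged and 52.4 FPKM in young.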

How the data were processed

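Each library had 1 deposited table of FPKM per gene with 2 decimals, per the file headers. The submitters' processing notes name TopHat, Cuffdiff and mm10. The annotation, the strand setting and the normalization between libraries are not given in the sources used here. Groups follow the ages that the labels give.

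The fit was limma 3.58.1 (R 4.3.3; lmFit, eBayes with trend, 6 libraries, no covariates, two-sided) on log2(FPKM + 1) for every gene averaging 1 FPKM or more, with Benjamini-Hochberg adjustment over 11912 genes and a threshold of 0.05. It was tested on simulated data. A count model was not used on FPKM. Classes of members are described by counts and medians only. All 42 genes could be named: values in every library are given for members with separate groups at an unadjusted p under 0.05, for the most abundant member of each role and for Hspa1a, Hspa1b, Hspb1, Hsf1, Hspd1 and Hspe1. The 42 genes, their classes and the further lists were chosen with earlier results of these data known. Genes of the further lists were named by the 3 smallest unadjusted p of each.

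Depth was estimated from genes of 1 transcript: between 3.5 and 10.5 estimated reads, the share of values no more than 0.15 away from an integer was 53.7% to 58.2%, where evenly spread values would give 30%, so read estimates are approximate. Identifiers were matched to RefSeq GRCm38.p6 (16962 of 17006), which also gave promoters and coordinates. Transcripts were those of GENCODE M21. Python 3.11.15, pandas 2.3.3, scipy 1.17.1 and matplotlib 3.10.9 were used. Alternatives covered the pseudocount, the filter, 3 scalings, limma's options, the threshold, a replicate block and leaving out each library. The sum of Hspa1a and Hspa1b was added after seeing the data. The share of Hspa1a in it, the ratios between genes and the permutation tests were not in the plan either.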

Additional observations from a re-analysis of the deposited data

How the results depend on the processing

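Of the 42 chaperone genes, 0 passed an adjusted p of 0.05 under any alternative run (0 to 5 had an unadjusted p under 0.05). The lowest adjusted p of a member was 0.1455, for Hspa1a with no filter. Over all genes, the 86 calls became 19 at a threshold of 0.01, 11 without limma's trend, 39 to 63 with 1 library left out and 22 under a replicate block. Same-numbered libraries did not deviate together (correlations across genes 0.008, -0.072 and 0.108), so the numbers were not taken as pairs. The median log2 change of the heat-inducible members was 0.010, but -0.0555 among genes of at least 5 FPKM and -0.017 to 0.0493 with 1 library left out. That of constitutive members was -0.0153, and -0.0174 to 0.0315 with 1 library left out. The median of all members and that of the CCT genes also changed sign, so none of these 4 medians is given a direction. The replicate block changed no call of a member. The cause of these shifts was not tested. Of the 40 tested members, 26 kept the sign of their log2 change under every alternative that tested them and 14 changed it in at least 1, so no direction is claimed for those. Hspa1a and Hspb1, under the filter, were fitted only with no filter. The log2 change of Hspa1b was 0.79 with a pseudocount of 0.1 and 0.20 with one of 5, and 0.093 when summed with Hspa1a. The Hspa1a, Hspa1b, Hspb1 and Hspb8 values are limited by depth.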
